A study of Mus musculus with 22 samples.

Results

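The DUOX family of the mouse comprises 2 dual oxidases, Duox1 and Duox2, and their 2 maturation factors, Duoxa1 and Duoxa2. These 4 genes were picked by symbol from the 41388 genes in the count files, because Duoxa2 separated sorted TdTOSX+ from TdTOSX- libraries in an earlier look at the same counts. The difference of Duoxa2 between TdTOSX+ and TdTOSX- cells is therefore what selected the family, and it is described below without a test. Differences by CD45 and by genotype had no part in the choice and were tested.

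The libraries came from the stroma of breast tumors in C57BL/6 mice of postnatal day 56, all of which carried Osx-cre and the Ai9 reporter. In Osx-cre, regulatory sequence of Sp7, which encodes the osteoblast transcription factor Osterix, switches on the recombinase Cre through a transactivator that tetracyclines block, and Ai9 marks with TdTomato (TdT) every cell in which Cre has acted and all of its descendants, so TdT reports past as well as present promoter activity. The study states that its work after the first experiments used mice fed doxycycline, a tetracycline, until weaning. It does not repeat this for the sequenced mice. The tumor is named MMTV-BO1 and orthotopic in the sample labels, subcutaneous in the description of the deposit, and GFP-labeled PyMT-BO1 and subcutaneous in the methods of the study, where GFP+ tumor cells were separated from the stroma. Cells were sorted into TdTOSX single positive (TdTOSX+;CD45-), double positive (TdTOSX+;CD45+), CD45 single positive (TdTOSX-;CD45+) and double negative (TdTOSX-;CD45-) populations. Wild type mice (Osx-cre;Ai9, 4 inoculated) and mice labelled Cdh2-cKO (Cdh2-cKO;Ai9, 6 inoculated), a conditional knockout of N-cadherin, each gave 2 libraries of TdTOSX single positive cells and 3 of every other population. The labels call these biological replicates but do not say which mouse gave which library, or whether populations came from the same mice.

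The 22 libraries held between 16594228 and 26784003 counted reads, with a median of 18977040, so the smallest signal taken as present (3 counts) lay between 0.103 and 0.201 normalized CPM. This floor covers counting error only. Ptprc, which encodes CD45, followed its label, at 472 to 1820 normalized CPM in the 12 CD45+ libraries and 2.45 to 337 in the 10 CD45- libraries. The highest CD45- values were 337 in wild type double negative replicate 3 and 164 in Cdh2-cKO TdTOSX single positive replicate 1. Sp7 had 0 counts in each of the 10 TdTOSX+ libraries and 3 counts over the 12 TdTOSX- libraries, so the transcript behind the reporter was not detectable at this depth. Cdh2 went against its label. It lay at 12.5 to 18.4 normalized CPM in the 5 CD45- libraries labelled Cdh2-cKO and at 4.52 to 9.14 in the 5 wild type ones, and whole-gene counts do not resolve deleted exons, so every genotype difference below is one between libraries with these labels, which are called Cdh2-cKO libraries for short.

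Dual oxidases are large membrane enzymes that pass electrons from cytosolic NADPH to oxygen and release hydrogen peroxide at the outer face of the cell. They are best known from the thyroid, where the peroxide is used in hormone synthesis, and from airway and gut epithelium, where it serves defence against microbes. Each oxidase needs its maturation factor to leave the endoplasmic reticulum and work at the cell surface. DUOXA2 is the partner of DUOX2 and DUOXA1 that of DUOX1, and each oxidase gene lies head to head with the gene of its own partner.

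In the deposited GRCm38 annotation all 4 genes lie on chromosome 2. Duox2 (ENSMUSG00000068452) occupies 122279247 to 122298165 on the minus strand, and Duoxa2 (ENSMUSG00000027225) 122298900 to 122302885 on the plus strand. Duoxa1 (ENSMUSG00000027224) occupies 122302191 to 122313730 on the minus strand, and Duox1 (ENSMUSG00000033268) 122315672 to 122347972 on the plus strand. The starts of Duox2 and Duoxa2 are separated by 734 bases, and those of Duoxa1 and Duox1 by 1941 bases. At their other ends Duoxa2 and Duoxa1 overlap. Exon 6 of Duoxa2, at 122302204 to 122302885, lies wholly within an exon of Duoxa1, and these 682 bases are shared. Reads in them fit both genes, and only unambiguous reads were counted, so 910 of the 1592 exonic bases of Duoxa2 and 3295 of the 3977 of Duoxa1 could collect counts. The kit does not mark strand.

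**Figure D1:**
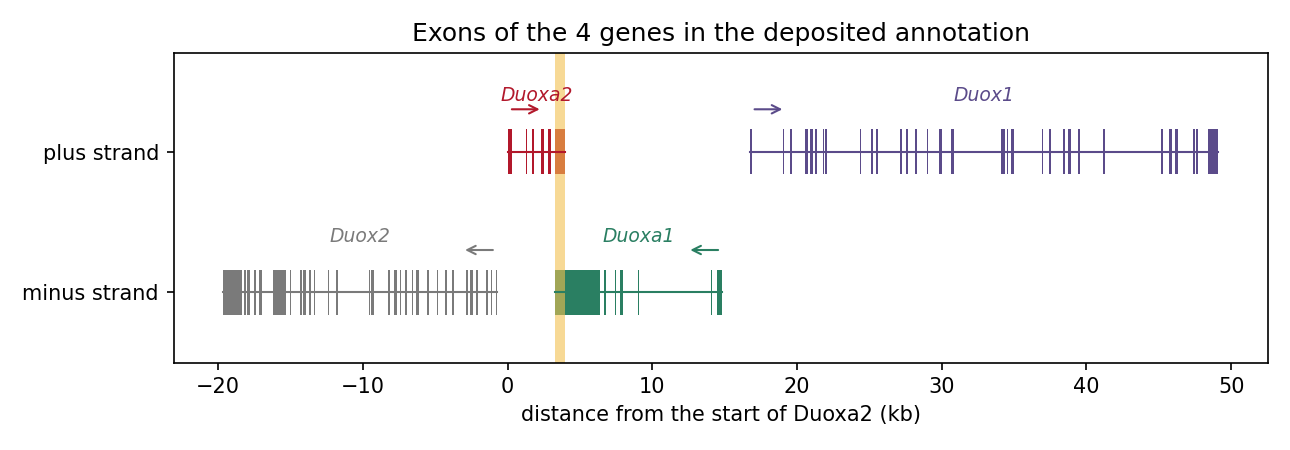
Exons (boxes) and introns (lines) of the 4 genes by strand, with the distance in kb from the start of Duoxa2 on the x axis and arrows for the direction of transcription. The shaded band is the 682 bases where exon 6 of Duoxa2 and an exon of Duoxa1 coincide.

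The stretch in front of Duoxa2 is shown because this gene was chosen for its difference between the sorted populations. Its head-to-head neighbour Duox2 had too few counts to be tested. The stretch is the RefSeq sequence of GRCm38.p6 at chr2:122298741-122298899, plus strand. It runs from the end of the RefSeq Duox2 model, where that minus strand gene starts, to the last base before Duoxa2. Capitals mark the letters of a TATA box (TATAAA) and of 2 GC boxes, which read GGGCGG on the minus strand.

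Duoxa2: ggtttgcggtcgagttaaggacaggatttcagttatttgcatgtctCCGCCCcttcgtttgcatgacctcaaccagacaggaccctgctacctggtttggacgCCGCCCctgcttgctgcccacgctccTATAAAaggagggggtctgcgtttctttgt

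The TATA letters lie 30 to 25 bases before the start of Duoxa2, and the GC boxes lie 113 to 108 and 56 to 51 bases before it. Promoter windows were found for all 4 genes. Of the 32851 windows of this length in the RefSeq table, searched on both strands, TATAAA is in 7.95% and GGGCGG in 29.2%. The Duoxa1 window holds 3 GC boxes and no TATAAA, and the Duox1 window holds neither. The Duox2 window also holds neither, although the printed stretch lies directly before the Duox2 model used above. That window was therefore taken at another start of Duox2, and no promoter difference between Duoxa2 and Duox2 is read from it. Letters of a STAT site (TTCNNNGAA, in 4.33% of windows), an AP-1 site (TGANTCA, in 4.51%), a C/EBP site (TTGCNNAA, in 5.81%) and an NF-kB site (in 4.92%) are in none of the 4 windows. These matches describe the letters only.

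Duoxa2, the maturation factor of DUOX2, was present in every library and high in each TdTOSX+ library. In TdTOSX single positive cells it had 1315 and 847 counts in wild type and 536 and 1120 in Cdh2-cKO libraries. Double positive cells gave 367, 136 and 173 counts in wild type and 295, 256 and 203 in Cdh2-cKO libraries. No TdTOSX+ library of either genotype fell below 136 counts.

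In CD45 single positive cells Duoxa2 had 35, 10 and 30 counts in wild type and 23, 21 and 20 in Cdh2-cKO libraries. Double negative cells gave 33, 18 and 30 counts in wild type and 12, 23 and 18 in Cdh2-cKO libraries. The TdTOSX- libraries were low without being empty, since the fewest counts, 10, were still above the floor.

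Scaled for library size, the lowest TdTOSX+ library lay at 7.95 normalized CPM and the highest TdTOSX- library at 2.11, a gap of 3.78-fold between the groups. This gap was 8.69-fold within the Cdh2-cKO libraries and 11.1-fold within the CD45- libraries, and it was set in wild type and CD45+ cells by the same pair of libraries. Of the 15043 genes tested, Duoxa2 was the only one whose 10 TdTOSX+ libraries all exceeded the 12 TdTOSX- libraries (0.00665%), and 0 genes did so in the other direction. Because this property chose the gene, nothing is read from it here.

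The mean was 24.9 ± 19.7 normalized CPM (SD, n = 10) in TdTOSX+ and 1.24 ± 0.461 (SD, n = 12) in TdTOSX- libraries, a ratio of 20.2. The ratio of means was 38.6 in CD45- cells, TdTOSX single positive over double negative, and 9.68 in CD45+ cells, double positive over CD45 single positive. As fitted log2 fold changes these differences were 5.28 in CD45- and 3.27 in CD45+ cells, and 4.18 in wild type and 4.37 in Cdh2-cKO libraries. In sorted bulk RNA, more cells with the transcript and more transcript per cell cannot be told apart.

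**Figure D2:**
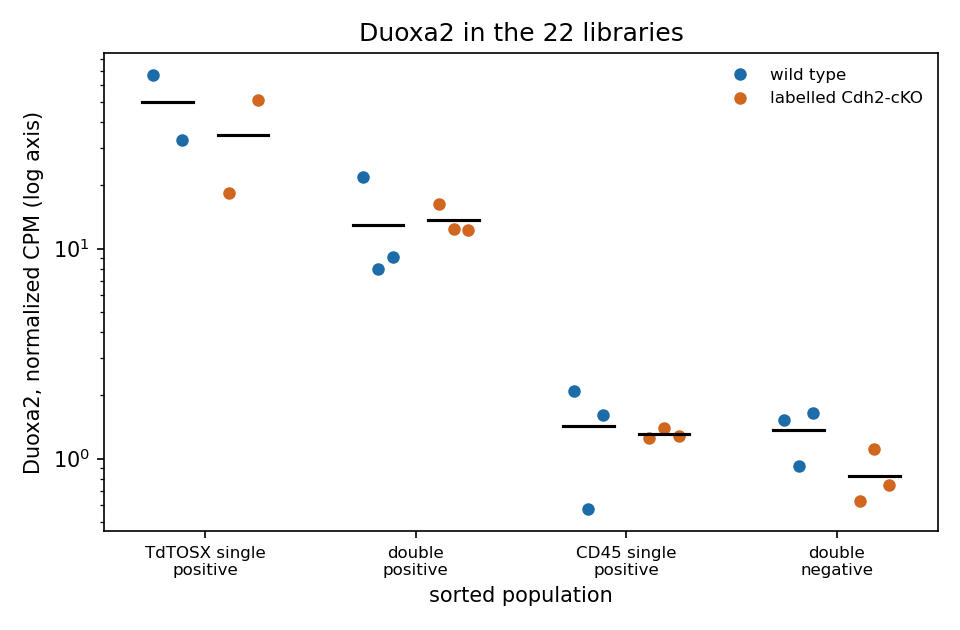
Normalized CPM of Duoxa2 on a log axis in each library (points) of the 4 sorted populations, wild type in blue and libraries labelled Cdh2-cKO in orange, with group means as bars. The 10 TdTOSX+ libraries sit between 7.95 and 67.2, and the 12 TdTOSX- libraries between 0.573 and 2.11.

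The 8 groups fell into 3 tiers. TdTOSX single positive cells came first, with 50.0 ± 24.3 normalized CPM (SD, n = 2) in wild type and 34.7 ± 23.1 (SD, n = 2) in Cdh2-cKO libraries, which overlapped. Double positive cells followed, with 13.6 ± 2.29 (SD, n = 3) in Cdh2-cKO and 13 ± 7.69 (SD, n = 3) in wild type libraries, which also overlapped. In the same way the wild type double positive library at 21.8 exceeded the Cdh2-cKO TdTOSX single positive library at 18.4.

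The 4 TdTOSX- groups formed the lowest tier. Their means were 1.43 ± 0.783 in wild type CD45 single positive, 1.36 ± 0.389 in wild type double negative, 1.32 ± 0.0769 in Cdh2-cKO CD45 single positive and 0.832 ± 0.252 in Cdh2-cKO double negative cells (SD, n = 3 each). Of neighbours in this order, the last pair did not overlap, at 1.26 or more against 1.11 or less, while the others did. The counts of this last pair did overlap, at 20 to 23 and 12 to 23. How many genes separate in this way was not counted, and nothing is read from it.

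The overlap of exon 6 with Duoxa1 was set against the counts of that gene in the same libraries. In the 6 double positive libraries Duoxa2 had 136 to 367 counts and Duoxa1 0 to 8, and in the 6 double negative libraries Duoxa2 had 12 to 33 and Duoxa1 47 to 310. In the 4 TdTOSX single positive libraries both were high, with 536 to 1315 and 119 to 173 counts, and in the 6 CD45 single positive libraries both were low, with 10 to 35 and 0 to 8. Over the 22 libraries the Pearson correlation of their log2 CPM was 0.032, a description over libraries that share sort and depth.

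Genes around the locus were not called by TdTOSX. Of the 10 further genes within 100 kb of the family, 4 passed the filter on low counts (Rps12-ps10, Sord, Shf and Slc28a2), and 0 of them were called by edgeR between TdTOSX+ and TdTOSX- cells (adjusted p between 0.331 and 0.956), where 0.419% of all genes tested were. Sord, which encodes sorbitol dehydrogenase and is the nearest tested gene on the Duox2 side, lay at 9.96 to 36.3 normalized CPM in TdTOSX+ and 7.54 to 39.2 in TdTOSX- libraries, with a log2 fold change of -0.03 (SE 0.188, adjusted p = 0.956). Shf, the nearest one on the Duox1 side, had a log2 fold change of -0.64 (SE 0.496, adjusted p = 0.538).

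Duox2, the oxidase that DUOXA2 serves, was at or under the floor in most libraries. Its counts were 18 and 0 in wild type and 0 and 0 in Cdh2-cKO TdTOSX single positive libraries. Double positive libraries had 1, 0 and 1 counts in wild type and 1, 0 and 1 in Cdh2-cKO. CD45 single positive libraries had 3, 3 and 1 counts in wild type and 0 in each of the 3 Cdh2-cKO libraries.

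In double negative cells Duox2 had 28, 0 and 0 counts in wild type and 2, 4 and 1 in Cdh2-cKO libraries. Only 5 of the 22 libraries reached 3 counts, and 46 of its 64 counts came from the wild type TdTOSX single positive library with 18 and the double negative library with 28. Duox2 failed the filter on low counts and was not tested, and a difference of Duox2 between populations or genotypes was not detectable at this depth.

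The partners were therefore far apart in level. Over the 10 TdTOSX+ libraries there were 5248 counts of Duoxa2 and 22 of Duox2. Per kb of countable exon, the mean in TdTOSX+ libraries was 27.4 ± 21.7 normalized CPM for Duoxa2 and 0.0179 ± 0.0444 for Duox2 (SD, n = 10). In the 12 TdTOSX- libraries the same levels were 1.36 ± 0.507 and 0.0265 ± 0.0562 (SD, n = 12).

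**Figure D3:**
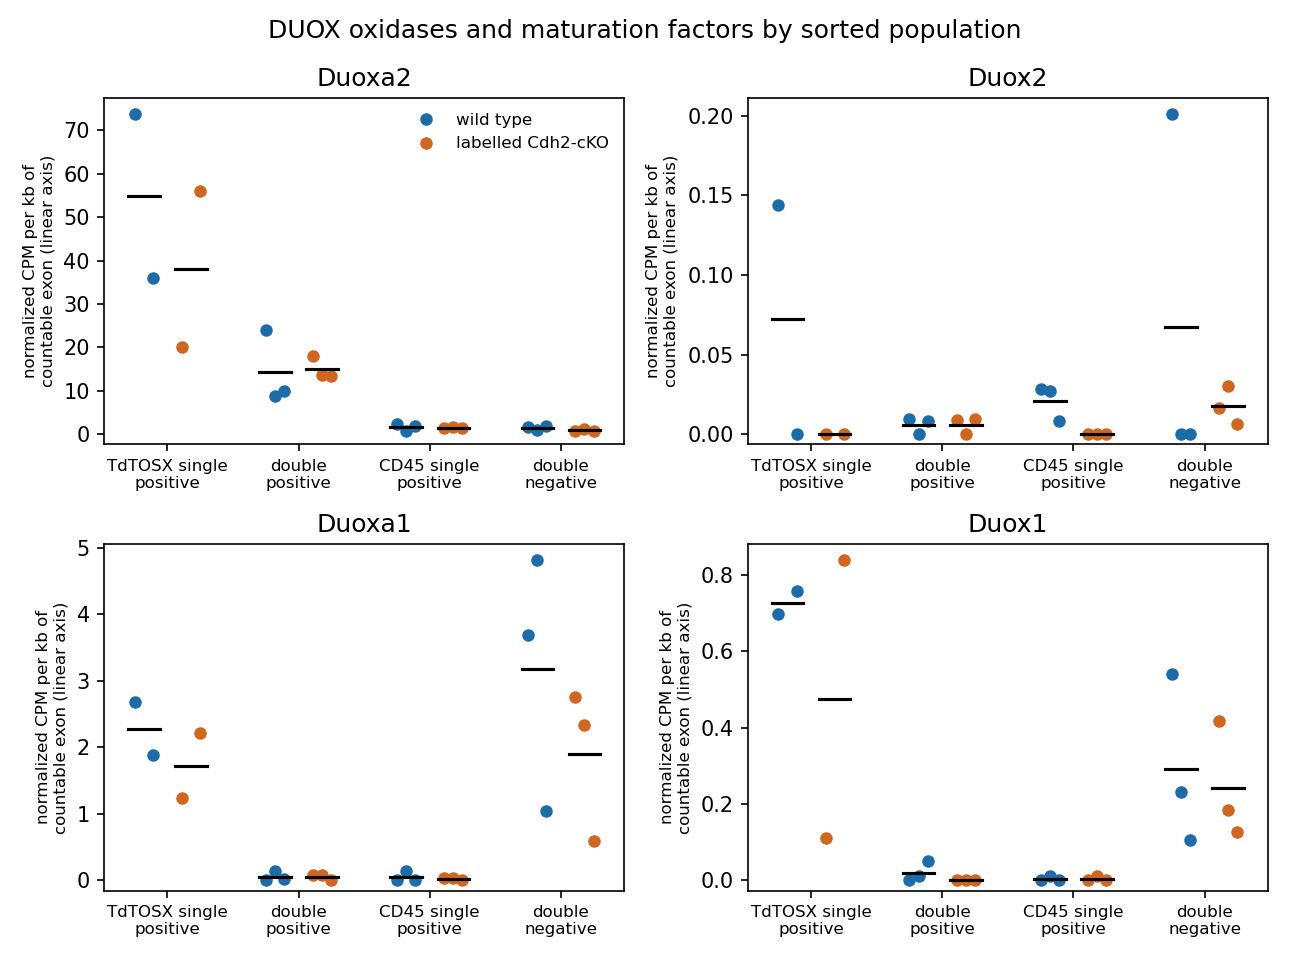
Normalized CPM per kb of countable exon in each library (points), with group means as bars, on a linear axis of its own for each gene. Duoxa2 is high in both TdTOSX+ populations, Duoxa1 and Duox1 in both CD45- populations, and Duox2 does not exceed 0.201 in any library.

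Duoxa1, the maturation factor of DUOX1, followed CD45 and not TdTOSX. It had 173 and 160 counts in wild type and 119 and 160 in Cdh2-cKO TdTOSX single positive libraries. Double negative libraries had 264, 310 and 63 counts in wild type and 173, 159 and 47 in Cdh2-cKO. All 10 CD45- libraries thus held 47 counts or more.

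In CD45+ cells Duoxa1 was at or near the floor. Double positive libraries had 0, 8 and 1 counts in wild type and 5, 6 and 0 in Cdh2-cKO, and CD45 single positive libraries had 0, 8 and 0 in wild type and 2, 2 and 0 in Cdh2-cKO. No CD45+ library overlapped with any CD45- library.

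Duox1, the oxidase that DUOXA1 serves, was also found mostly in CD45- cells, at lower counts. It had 72 and 103 counts in wild type and 17 and 97 in Cdh2-cKO TdTOSX single positive libraries. Double negative libraries had 62, 24 and 10 counts in wild type and 42, 20 and 16 in Cdh2-cKO. Of the 12 CD45+ libraries 8 had 0 counts, 3 had 1 count each, and wild type double positive replicate 3 had 5. Among the CD45- groups the means of Duox1 were highest in TdTOSX single positive cells of both genotypes, while that of Duoxa1 was highest in wild type double negative cells, and for both genes neighbours in this order overlapped.

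The mean of Duoxa1 was 7.66 ± 4.16 normalized CPM (SD, n = 10) in CD45- and 0.149 ± 0.18 (SD, n = 12) in CD45+ libraries, a ratio of 51.4. For Duox1 the means were 2.11 ± 1.52 (SD, n = 10) and 0.0372 ± 0.0764 (SD, n = 12), a ratio of 56.8. Within the 10 CD45- libraries the pair followed each other with a Pearson r of 0.561, and over all 22 libraries, which the CD45 sort splits, with 0.915. Duoxa2 correlated with Duox1 at 0.545 and with Duoxa1 at 0.011 within the same 10 libraries.

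Per kb of countable exon, levels in TdTOSX single positive cells ran from Duoxa2 (46.5 ± 23.4 normalized CPM, SD, n = 4) through Duoxa1 (2.0 ± 0.607) and Duox1 (0.601 ± 0.332) to Duox2 (0.0359 ± 0.0718). In double negative cells the order began with Duoxa1 (2.54 ± 1.58, SD, n = 6), followed by Duoxa2 (1.21 ± 0.454), Duox1 (0.268 ± 0.175) and Duox2 (0.0424 ± 0.0785), and the libraries of Duoxa1 and Duoxa2 overlapped. In CD45+ cells Duoxa2 had the highest mean, at 14.6 in double positive and 1.51 in CD45 single positive cells, against 0.055 and 0.0355 for Duoxa1, the next.

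Comparing CD45+ with CD45- cells asks whether the family differs between immune and non-immune stroma. Of the 3 members tested, Duoxa1 and Duox1 were called lower in CD45+ cells, and so was Duoxa2 with a smaller effect, in a comparison that called 63.7% of all genes tested and 31.1% in this direction. A share this high leaves the count of members close to what many genes did. Likewise, 11% of genes had every CD45- library above every CD45+ library, as Duoxa1 and Duox1 did.

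Duoxa1 fell by 5.61 on the log2 scale in CD45+ cells (SE 0.622, edgeR adjusted p = 6.85e-07) and Duox1 fell by 6.28 (SE 0.683, edgeR adjusted p = 1.27e-06). Both genes passed the filter on low counts through CD45- libraries alone. No CD45+ library exceeded 0.468 normalized CPM for Duoxa1 or 0.264 for Duox1. The filter thus left only this direction open to a call, and the p-values of both genes by CD45 are description only. Because Duox1 had 0 counts in all 3 Cdh2-cKO double positive libraries, its fitted value depends on the prior count, and the ratio of means above is the plainer measure. Both falls were called within TdTOSX+ cells, at -5.11 (adjusted p = 0.000144) for Duoxa1 and -6.82 (adjusted p = 5.22e-05) for Duox1, and within TdTOSX- cells, at -6.10 (adjusted p = 3.27e-05) and -5.75 (adjusted p = 0.000138). Of all genes tested, 26.9% were called lower within TdTOSX+ and 26.1% within TdTOSX- cells.

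Duoxa2 was lower in CD45+ cells by a log2 fold change of -0.64 (SE 0.255, edgeR adjusted p = 0.0358), with library ranges that overlapped (0.573 to 21.8 in CD45+ and 0.631 to 67.2 in CD45- normalized CPM). The call was lost with the limma voom test, which the study used (-0.45, adjusted p = 0.235), and on leaving out any 1 of 11 libraries, with an adjusted p between 0.00805 and 0.17 over all 22 omissions. The lowest effect, -0.41, came without Cdh2-cKO TdTOSX single positive replicate 2.

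Split by the reporter, in contrasts added after the values were seen, Duoxa2 was lower in CD45+ cells within TdTOSX+ (log2 fold change -1.65, SE 0.355, adjusted p = 0.00121) and was not called within TdTOSX- (0.36, SE 0.361, adjusted p = 0.421). The difference between these effects was -2.01. It is also the difference between the TdTOSX effects on Duoxa2 in CD45+ and CD45- cells. Because the TdTOSX difference of Duoxa2 chose the family, it is described without a test. Without wild type CD45 single positive replicate 2 and double negative replicate 3 it was -2.27.

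Markers of other cells moved with the CD45 comparison. The summed level of 6 fibroblast markers (Col1a1, Col1a2, Col3a1, Dcn, Lum and Pdgfra) was 4220 to 59000 normalized CPM in CD45- and 59.9 to 213 in CD45+ libraries, and that of 6 leukocyte markers 190 to 6610 and 11200 to 13600, with all 6 of each list called. Among TdTOSX single positive libraries, Duoxa2 (18.4), Duoxa1 (4.08) and Duox1 (0.583) were each lowest in the Cdh2-cKO library that had the most Ptprc. Without this library and wild type double negative replicate 3 the CD45 effects were -0.81 for Duoxa2, -5.87 for Duoxa1 and -6.64 for Duox1, and all 3 were called. The CD45- libraries kept in this fit still held leukocyte markers, up to 2030 normalized CPM in Cdh2-cKO TdTOSX single positive replicate 2. The part of other cells in these levels was not tested.

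Epithelial cells, where the family is best known, were looked for with 16 markers. Their summed level was 47.9 to 943 normalized CPM (median 758) in TdTOSX single positive, 513 to 2000 (median 1160) in double negative, 134 to 414 (median 297) in double positive and 152 to 471 (median 248) in CD45 single positive libraries. It was thus higher in TdTOSX single positive than in double positive libraries at the median, as Duoxa2 was, and highest in double negative libraries, where Duoxa2 was low. By CD45, 2 markers were called higher in CD45+ cells and 6 lower, beside 32.6% and 31.1% of all genes. Those higher were Epcam (4.96 on the log2 scale) and Cdh1 (4.07), so the sum does not stand for every marker. Between TdTOSX+ and TdTOSX- cells 0 of the 10 that could be tested were called by edgeR, beside 0.419% of all genes, with a list median of -0.80. Unadjusted, 1 had p under 0.05, and DESeq2 called 1. In the TdTOSX single positive libraries the summed level was 47.9 and 578 in wild type and 943 and 937 in Cdh2-cKO replicates 1 and 2, where Duoxa2 had levels of 67.2, 32.8, 18.4 and 51.0 normalized CPM. Of the 16 markers, only Elf3 and Ehf had 0 counts in all 4 of these libraries, and every other marker had counts in at least 1 of them. The part of epithelial cells in the levels of Duoxa2 was not tested.

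The second factor of the deposit was the genotype. Between libraries labelled Cdh2-cKO and wild type, 0 of the 3 members tested were called by edgeR, voom or DESeq2 as a mean over the populations, and 0 had an unadjusted p under 0.05. Over all genes edgeR called 0 of 15043 (0%), although 1733 had an unadjusted p under 0.05, voom called 0 and DESeq2 120. The log2 fold change of Duoxa2 was -0.32 (SE 0.255, adjusted p = 0.663).

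By population, Duoxa2 differed between the genotypes by -0.53 (SE 0.555, adjusted p = 0.757) in TdTOSX single positive, 0.07 (SE 0.457, adjusted p = 1) in double positive, -0.12 (SE 0.509, adjusted p = 0.957) in CD45 single positive and -0.71 (SE 0.514, adjusted p = 0.867) in double negative cells. In 3 of these 4 populations the sign turned when 1 library was left out. In the CD45- populations together, where Duoxa1 and Duox1 were expressed, the difference was -0.58 (SE 0.731, adjusted p = 0.817) for Duoxa1 and -0.45 (SE 0.696, adjusted p = 0.857) for Duox1. For both genes in CD45+ cells the libraries of both genotypes were mostly at or under the floor, and no fold is given. The CD45 effect on Duoxa2 differed between genotypes by 0.59 (SE 0.509, adjusted p = 0.804).

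The other NADPH oxidases and the genes that make use of or remove hydrogen peroxide gave the setting of the family. Of 11 other NADPH oxidase genes 7 could be tested, and 0 were called between TdTOSX+ and TdTOSX- cells by edgeR, voom or DESeq2, with 0 at an unadjusted p under 0.05, where edgeR called 0.419% of all genes. When the 11 Cdh2-cKO libraries were fitted alone 5 were called, in a fit that called 8.47% of all genes and 5 of the 6 leukocyte markers. The summed level of these markers was 4540 and 2030 normalized CPM in Cdh2-cKO TdTOSX single positive and 344 to 451 in Cdh2-cKO double negative libraries, and their part in these calls was not tested. Between CD45+ and CD45- cells all 7 were called, 6 of them higher in CD45+ cells, as were 32.6% of all genes tested. The median log2 fold change of the list was 3.39 in this comparison, beside 0.06 over all genes tested.

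The genes with the smallest p were split in direction. Nox4, an oxidase that makes hydrogen peroxide without a cytosolic activator, fell by 6.75 on the log2 scale in CD45+ cells (SE 0.385, adjusted p = 2.19e-10), as Duoxa1 and Duox1 did. Cyba, the membrane partner of several NOX enzymes, was higher by 2.23 (SE 0.263, adjusted p = 1.43e-06), and Cybb, the catalytic subunit of the phagocyte oxidase, by 3.53 (SE 0.602, adjusted p = 7.11e-05).

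**Figure D4:**
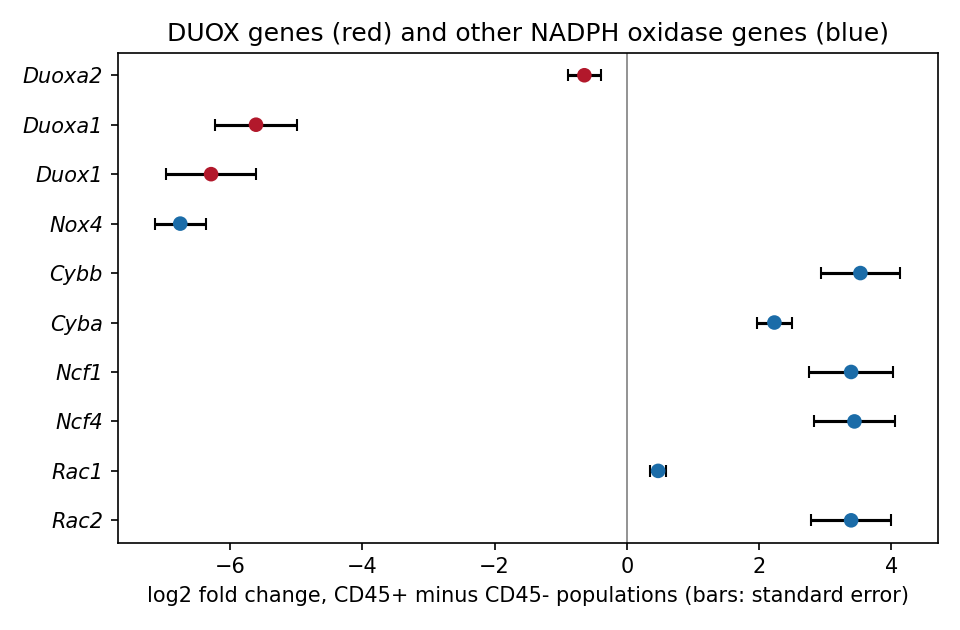
Log2 fold change of CD45+ against CD45- populations (points) with its standard error (bars) for the 3 tested DUOX genes (red) and the 7 tested genes of the other NADPH oxidases (blue), from the fit of 22 libraries. Duoxa1, Duox1 and Nox4 lie between -5.61 and -6.75, Duoxa2 at -0.64, and the 6 others above 0.

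Genes that use or remove the peroxide were counted in the same way, and by TdTOSX their counts are not apart from the 0.419% over all genes. Of 4 peroxidases 2 could be tested, with 0 called by edgeR, voom or DESeq2 between TdTOSX+ and TdTOSX- cells and 0 at an unadjusted p under 0.05. Between CD45+ and CD45- cells Pxdn, a peroxidase of the extracellular matrix, fell by 6.04 on the log2 scale (SE 0.344, adjusted p = 2.19e-10), and Mpo, the peroxidase of neutrophil granules, missed the threshold (-1.37, SE 0.601, adjusted p = 0.0552). Of 16 genes that remove peroxide or superoxide 15 could be tested, and 0 were called by TdTOSX in edgeR, voom or DESeq2, with 2 at an unadjusted p under 0.05. By CD45, 9 of the 15 were called, a share near the 63.7% over all genes, with 6 higher and 3 lower in CD45+ cells. Those lower were Sod3 (-7.03, SE 0.437, adjusted p = 5.4e-10), Gpx3 (-4.62, SE 0.37, adjusted p = 1.2e-08) and Prdx6 (-0.94, SE 0.135, adjusted p = 1.23e-05), with a list median of 0.04.

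Genes of the programs in which the family is known gave no call by TdTOSX in edgeR, where 0.419% of all genes were called, so little can be read from lists of this size. Of 9 genes of thyroid hormone synthesis 2 could be tested, Tg and Hhex, both called higher in CD45+ cells (2.14 and 2.69 on the log2 scale) and neither by TdTOSX in edgeR, voom or DESeq2 or at an unadjusted p under 0.05. Of 20 genes of mucosal defence 15 could be tested, with 0 called by TdTOSX in edgeR, voom or DESeq2 and 0 at an unadjusted p under 0.05 in the mean over CD45 and genotype. By CD45, 6 rose and 8 fell in CD45+ cells (list median -1.89), beside 32.6% and 31.1% of all genes, among them Nod2, a sensor of bacterial wall fragments (3.25, SE 0.383, adjusted p = 1.39e-06), Cxcl5, a chemokine for neutrophils (-5.99, SE 0.618, adjusted p = 2.84e-07), and Il17rc, a subunit of the IL-17 receptor (-3.24, SE 0.371, adjusted p = 9.73e-07).

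Genes with the most similar pattern were found by the Pearson correlation of log2 CPM over the 22 libraries, which share the CD45 sort, depth and amplification. For Duoxa2 the highest were Mrpl37 (r = 0.867), Ubald1 (0.859), Trp53i13 (0.85), Dda1 (0.833) and Ap2a1 (0.815). Within the 10 TdTOSX+ libraries alone they were Fam104a (0.99), Prkci (0.973), Lmtk2 (0.97), Rictor (0.964) and Smim3 (0.963), so no gene was in both groups of 5. The first group was ranked over the TdTOSX split that chose Duoxa2. Both groups are the highest values out of all genes kept, the second over only 10 libraries, and nothing is read from either.

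For Duoxa1 the highest were Lgi2 (r = 0.963), Ces2g (0.962), Pdgfd (0.961), a platelet-derived growth factor, Ccl11 (0.96), the chemokine eotaxin, and Igfbp5 (0.959). For Duox1 they were Igdcc4 (0.972), Fjx1 (0.971), Evc (0.968), Gli2 (0.967), a transcription factor of Hedgehog signaling, and Emx2 (0.967). The values of Duoxa1 and Duox1 mostly reflect the split between CD45- and CD45+ libraries.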

How the data were processed

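RNA of sorted cells was amplified with the SMARTer kit, without strand or molecular identifiers. The authors aligned single-end reads to GRCm38 with STAR 2.0.4b. They then assigned each read with a unique and unambiguous position to an Ensembl gene with featureCounts (1.45 in the submitters' processing notes), and the deposited counts are these raw numbers of reads. The deposited CPM (counts scaled by the library total) and RPKM (CPM per kb of gene), also computed by the authors, were only checked against the counts, with a largest relative deviation of 5.1e-14. Pairs of replicates differed by 47.5 to 409 times the counting variance, so none was counted as a duplicate.

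Genes annotated as rRNA (355) and those that did not exceed 1 CPM in 2 or more libraries were dropped, which kept 15043 genes and 3 of the 4 members. edgeR 4.0.16 (R 4.3.3) fitted a quasi-likelihood model with TMM factors and 1 mean for each of 8 groups. Normalized CPM are counts over the TMM-scaled library size of the kept genes. The threshold was an adjusted p (Benjamini-Hochberg, over all genes tested) of 0.05, and each adjusted p is from edgeR unless named otherwise. p-values measure the spread between these libraries, which may share mice. The fit was tested on simulated data for the CD45 contrast, the mean genotype contrast and the genotype contrast in double negative cells. A minimum recovery was set for the CD45 and mean genotype contrasts only. The power of genotype contrasts within a population was not established. Alternatives were DESeq2 1.42.0, limma 3.58.1 voomWithQualityWeights, RLE factors, other filters, replicate blocks, each genotype alone and libraries left out. Correlations used log2 CPM with a prior count of 2.

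The members and gene lists were chosen with earlier results of these data known. Named genes were the members, 2 to 4 genes of each list with the smallest p, neighbours within 100 kb, the 5 genes most correlated with each member, and Cdh2 and Ptprc. Some genes of these lists are not reported here, and the counts over the lists leave them out. Cybb, Mpo, Prdx6, Elf3, Ehf, Epcam, Cdh1 and Sp7 were added after their values were seen, as were the CD45 contrasts within TdTOSX+ and TdTOSX- cells and the genotype contrast over CD45- cells.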

Additional observations from a re-analysis of the deposited data

How the results depend on the processing

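Over the log2 fold changes of the 3 tested members, without the TdTOSX difference that chose Duoxa2, 911 of 954 alternative values kept their direction and side of the threshold. The falls of Duoxa1 and Duox1 in CD45+ cells kept their direction and call under every alternative, from -6.92 to -5.46 and from -7.14 to -5.22, single libraries left out included. Both genes passed the filter on low counts through CD45- libraries alone, so these calls are description only. The CD45 call of Duoxa2 was lost with voom (-0.45, adjusted p = 0.235), without wild type CD45 single positive replicate 2 and double negative replicate 3, which stood apart in an earlier analysis (-0.57, adjusted p = 0.0503), and in wild type (-0.94, adjusted p = 0.0914) or Cdh2-cKO libraries alone (-0.40, adjusted p = 0.231). With single libraries left out it ran from -0.79 to -0.41, and the call was lost, at an adjusted p between 0.0512 and 0.17, without TdTOSX single positive replicate 1 (wild type) or 2 (Cdh2-cKO), double positive 2 or 3 (either genotype), CD45 single positive 2 (wild type), 1 or 3 (Cdh2-cKO), and double negative 1 (wild type) or 2 (Cdh2-cKO). The cause was not tested. Without the pair of wild type libraries apart, the difference of the CD45 effect between TdTOSX+ and TdTOSX- cells was -2.27 for Duoxa2, described without a test. For Duox1 it turned (0.13).

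Differences that were not called also turned. Between genotypes in TdTOSX single positive cells, Duoxa2 went to 0.015 and Duox1 to 0.19 without the pair of CD45- libraries highest in Ptprc (wild type double negative replicate 3 and Cdh2-cKO TdTOSX single positive replicate 1), an alternative chosen after seeing the data. The mean genotype difference of Duoxa1, -0.46 with edgeR, was 0.00397 with voom and 0.59 without the wild type libraries apart. The TdTOSX difference of Duoxa1, 0.18, was -0.16 in wild type libraries alone, and that of Duox1, 0.60, was 1.75 in wild type and -0.56 in Cdh2-cKO libraries alone. With single libraries left out, the genotype difference of Duoxa2 ranged from -1.44 to 0.079 in TdTOSX single positive, from -0.18 to 0.67 in double positive and from -0.50 to 0.26 in CD45 single positive cells, that of Duox1 from -2.70 to 0.21 in TdTOSX single positive and from -0.92 to 0.52 in double negative cells, and the mean one of Duoxa1 from -0.60 to 0.70. For Duoxa1 the TdTOSX difference ranged from -0.41 to 1.34, and its CD45 effect differed by -0.056 to 2.56 between genotypes and by -0.21 to 3.31 between TdTOSX+ and TdTOSX- cells.

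Replicate numbers were not used to pair the samples, since the labels tie none to a mouse. Same-numbered pairs correlated above 0.1 in 4 of 15 wild type and 6 of 15 Cdh2-cKO cases. Differently numbered pairs did so in 5 of 30 and 1 of 30. The highest same-numbered r, 0.593, was between wild type TdTOSX single positive and double negative replicate 1. Whether some numbers share mice was not tested. A replicate block moved the TdTOSX difference of Duoxa1 to -0.073 by number and -0.039 within genotype, left the CD45 effect of Duoxa2 at -0.67 (adjusted p = 0.0369) and -0.63 (adjusted p = 0.0108), and changed no other call of a member. It moved the genes called by TdTOSX from 63 to 46 and 54. The count was 587 with DESeq2, 288 with voom, 34 without a filter, 472 without the wild type libraries apart, 1 in wild type and 1203 in Cdh2-cKO libraries alone, and 9 to 297 with single libraries left out. Genes called by CD45 numbered 9583, and 5592 in wild type libraries alone, where 3 NADPH oxidase genes and 5 removal genes were called in place of 7 and 9. Depth limits Duox2 everywhere and Duoxa1 and Duox1 in CD45+ cells.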
